A study of Mus musculus with 18 samples.

Results

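The genes described here act in G2 and M phase, the part of the cell cycle in which a cell with copied DNA prepares for mitosis, builds a spindle, parts its chromosomes and divides. They were a list of 54 mouse gene symbols: cyclins and their kinase, mitotic kinases, spindle checkpoint proteins, kinesins, kinetochore and spindle proteins, proteins of cytokinesis and of the anaphase machinery, Foxm1 and Mki67. A gene counted as measured where a probe set of the array was annotated to exactly that symbol, and the brightest such probe set stood for the gene. In all, 53 of the 54 were measured, among 19938 genes measured by the same rule, and Ccnb1 was not analysed here. Kif14 was the 1 member with more than 1 probe set.

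In most mammalian cells the genes of this program are silent in quiescence and are switched on together late in the cycle. A complex named DREAM, built on the MuvB core, holds them down through a short promoter element called the cell cycle genes homology region, and MuvB with B-Myb and later Foxm1 activates them, often with NF-Y bound to CCAAT boxes nearby. After DNA damage the p53 pathway returns the program to repression, and myoblasts leave the cycle before they fuse into myotubes.

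The study examined how PIP4K2B, a nuclear kinase that phosphorylates the lipid PI5P, acts through TAF3, a subunit of the general transcription factor TFIID whose PHD finger binds trimethylated histone H3 and phosphoinositides. C2C12 cells, an established mouse myoblast line, were measured on mouse gene arrays in 6 groups of 3 arrays. In every group endogenous TAF3 had been depleted with shRNA to its 3′ untranslated region and replaced by murine TAF3. WT-TAF3 cells carried the wild-type protein with control shRNA (shX) or with sh-PIP4K2B, and KK-TAF3 cells carried a mutant that no longer binds phosphoinositides, with sh-PIP4K2B only. The name shX for the control comes from the study, since the labels of those arrays name no control shRNA. Each of the 3 lines was taken to differentiation for 2 days in low serum, by the labels (the design text gives 3 days), or was treated with 10 µM etoposide for 7 hours in growth medium. Etoposide traps topoisomerase II on DNA and so leaves double-strand breaks. There was no KK-TAF3 group with shX and no group of untreated growing cells, so that etoposide and growth medium cannot be told apart. The lines were made by viral transduction and selected as stable cultures, and the methods describe the 3 arrays of each as biological triplicates. Where these came from 1 transduced culture, the p-values measure only the spread between its arrays.

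Values are log2 signals after RMA, the background correction, quantile normalization and probe summary that the authors applied, so that a difference of 1 is a doubling. Array medians lay between 7.25 and 7.46, and arrays of a group correlated with r between 0.990 and 0.997 over all probe sets. Pip4k2b, the gene targeted, was lower by 1.14 (adjusted p = 1.78e-06) on depletion in differentiated WT-TAF3 cells and by 0.88 (adjusted p = 3.68e-05) after etoposide. In KK-TAF3 sh-PIP4K2B cells it was lower than in the same WT-TAF3 shX controls by 0.83 after differentiation and by 0.71 after etoposide, both called. Taf3 signal, which can hold both the endogenous and the introduced transcript, differed by -0.17 to 0.06 in the comparisons within a treatment, none of them called. Of 10 muscle markers, Des, Myf5 and Myod1 averaged 13.00, 11.47 and 8.02, and Myh3 averaged 6.56. The mean over the 10 lay between 8.84 and 9.73 on all arrays. The mean over 11 markers of macrophages, endothelium, epithelium and fat cells stayed between 6.31 and 6.69. Single markers overlapped: the muscle markers Myh3 and Myog averaged below the fat cell marker Plin1 (7.48) and the macrophage marker Cd68. RMA values have no true zero, so no marker could be called absent. In whole-culture RNA, fewer cells in G2 or M and less of these transcripts per cell cannot be told apart. The study reports no significant effect of PIP4K2B knockdown on cell cycle progression during differentiation. That report concerns lines without TAF3 replacement and not the etoposide treatment.

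The promoters of the members held the letters of the cell cycle genes homology region more often than promoters at large. Windows from 250 bases before to 50 bases after the start were taken from RefSeq (GRCm38.p6), which had 1 for 44 of the 53 members and for 27025 genes in all. TTTGAA on either strand stood in 31 of 44 members (70.5%) against 20.2% of all genes, and TTCGAA, which reads the same on both strands, in 4 (9.09%) against 1.80%. CCAAT on either strand stood in 31 (70.5%) against 41.1%. These 3 motifs have different letters, and TTTGAA and TTCGAA cannot start at the same base. Either element together with CCAAT stood in 29 members (65.9%) against 8.61% of all genes. An element within 50 bases before to 10 bases after the start stood in 14 members (31.8%) against 3.79%. The 9 members without a window were Aurkb, Ccna2, Cdc25c, Dlgap5, Foxm1, Incenp, Kif20a, Spc24 and Tpx2. The stretches below are shown because they belong to members on which the results below turn. Capitals mark the element, or TTCAAA where TTTGAA lies on the other strand, and each stretch is read 5′ to 3′ on the strand of the gene.
Kif18b: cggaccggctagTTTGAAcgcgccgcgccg
Plk1: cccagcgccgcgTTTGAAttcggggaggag
Kif23: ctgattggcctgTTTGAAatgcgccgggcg
Aurka: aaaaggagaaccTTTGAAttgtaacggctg
Cdc20: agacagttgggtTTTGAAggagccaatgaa
Hmmr: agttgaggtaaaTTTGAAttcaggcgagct
Kif2c: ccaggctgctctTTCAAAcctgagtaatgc
Gas2l3: ctgattggctccTTCGAAacaggcggccgc
Cdc25b: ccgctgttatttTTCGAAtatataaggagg

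The stretch of Kif18b lies at chr11:102925104-102925133 on the minus strand, with the element starting at base 4 after the start. That of Plk1 lies at chr7:122159453-122159482 on the plus strand, with the element at base 31, and that of Kif23 at chr9:61946780-61946809 on the minus strand, with the element at base 3. Aurka's lies at chr2:172370521-172370550 on the minus strand (base 33), and Hmmr's at chr11:40733412-40733441 on the minus strand (base 9). In Cdc20 (chr4:118437344-118437373, minus strand) the element starts 18 bases before the start. In Kif2c (chr4:117178858-117178887, minus strand) the nearest element lies 103 bases before the start. Gas2l3 (chr10:89443958-89443987, minus strand) and Cdc25b (chr2:131186943-131186972, plus strand) carry the rarer TTCGAA, 8 bases before and at base 8 after the start.

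The members differed in level. The brightest was Ccna2, the cyclin of S phase and G2, with a mean of 12.01 over the 18 arrays, above 95.6% of all genes. The dimmest was Kif20b, a kinesin of late cytokinesis, with a mean of 7.52, above 44.1%. They also rose and fell together from array to array. Over the 18 arrays, a member's correlation with the mean of the other members had a median r of 0.887, against -0.07 for all genes with the mean of the members, and 38 members had an r above 0.8. With the group means taken out the median r was 0.580. These arrays share group, treatment and normalization, so the correlations describe the data and carry no test. Kif2c, the microtubule-depolymerizing kinesin MCAK, followed the others most closely (r = 0.984). Cdc25b, a phosphatase that starts the activation of Cdk1, ran against them (r = -0.53). Ube2c (0.084), Bub3 (0.116), Kif18b (0.336) and Spc25 (0.355) followed them least of the rest.

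**Figure D1:**
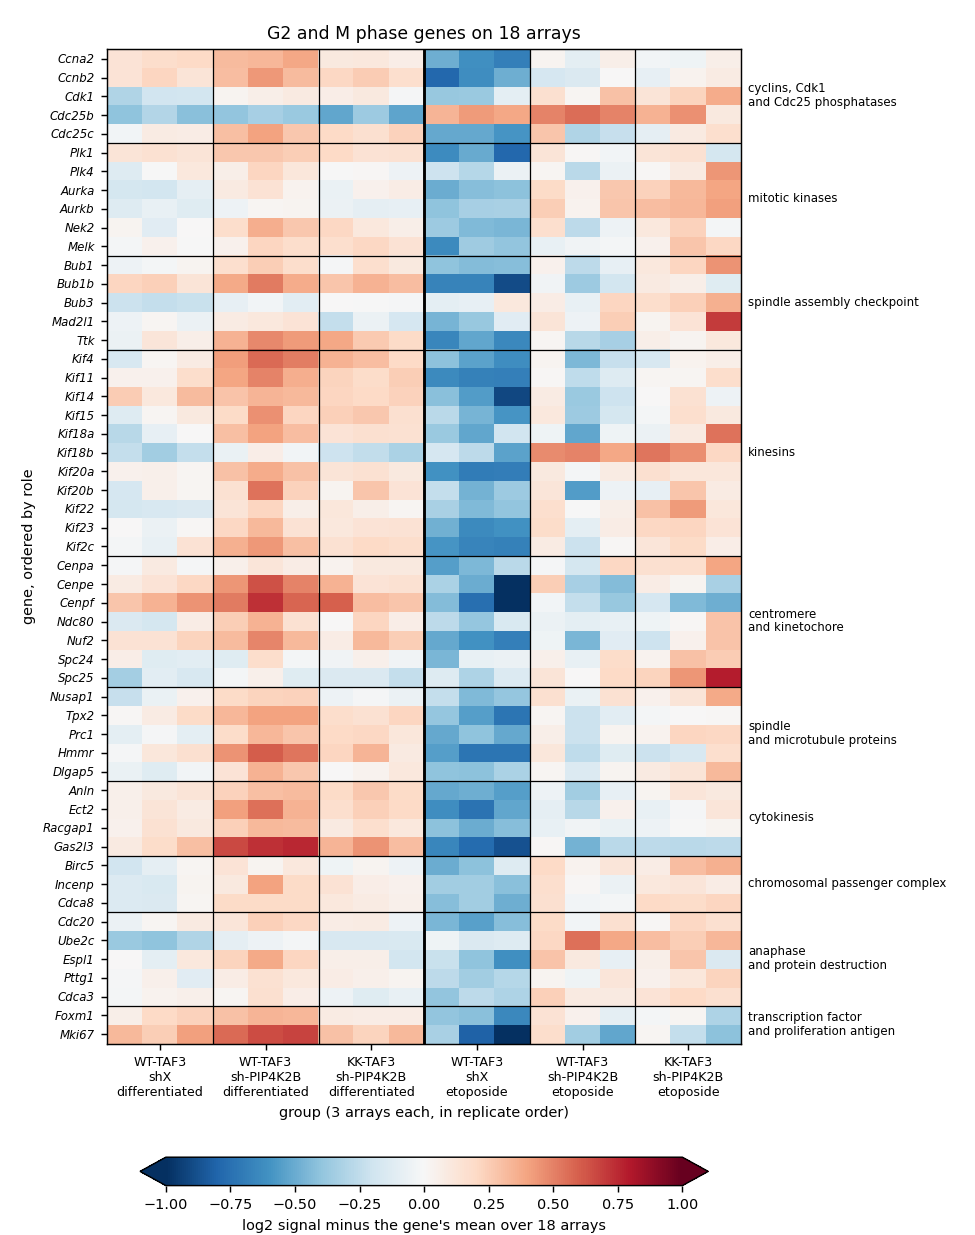
Each of the 53 members (lines, ordered by role) on the 18 arrays (columns, in the 6 groups of 3), colored by log2 signal relative to the gene's own mean over the arrays. The WT-TAF3 shX arrays after etoposide form the lowest block for most genes, and Cdc25b shows the opposite pattern by treatment.

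The mean over the 53 members showed where the groups stood. On the WT-TAF3 shX arrays it was 9.62, 9.67 and 9.71 after differentiation and 9.26, 9.21 and 9.19 after etoposide. On the WT-TAF3 sh-PIP4K2B arrays it was 9.87, 9.98 and 9.90 after differentiation and 9.77, 9.54 and 9.67 after etoposide. On the KK-TAF3 sh-PIP4K2B arrays it was 9.77, 9.79 and 9.74 after differentiation and 9.73, 9.80 and 9.82 after etoposide. The control cells after etoposide were lowest, with no overlap with any other group, and the depleted WT-TAF3 cells after differentiation were highest, again without overlap. In the KK-TAF3 cells the arrays of the 2 treatments overlapped. Etoposide arrays of WT-TAF3 sh-PIP4K2B spread most (SD 0.114, n = 3), replicate 1 being high and replicate 2 low.

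After etoposide, depletion of PIP4K2B in WT-TAF3 cells left higher signals of the division genes. All 53 members had a change above 0, between 0.08 and 0.78 (median 0.45, against 0.02 over all genes, of which 56.3% were above 0). A gene was called here where limma's adjusted p was below 0.05 and the change exceeded 1.4-fold, 0.485 on the log2 scale. By that rule 19 of 53 members rose and 0 fell, whereas 0.321% of all genes tested were called higher. With the adjusted p alone 38 members passed in the same direction, against 1.04% of all genes. In 44 members every depleted array lay above every control array, against 6.93% of all genes. The 19 were Ccna2, Ccnb2, Plk1, Aurka, Aurkb, Bub1b, Kif11, Kif18b, Kif20a, Kif23, Kif2c, Cenpf, Hmmr, Ect2, Gas2l3, Cdc20, Ube2c, Espl1 and Foxm1.

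Kif18b, a kinesin that limits the length of astral microtubules, had the largest rise. Its signals were 10.61, 10.51 and 10.24 on the control arrays and 11.25, 11.27 and 11.16 on the depleted arrays. The groups were far apart, replicate 3 of the control being low, and the change was 0.78 ± 0.09 (SE, adjusted p = 5.91e-05). Kif20a, a kinesin of the central spindle, had 9.83, 9.74 and 9.75 against 10.54, 10.42 and 10.52, 2 tight sets that differed by 0.72 ± 0.06 (adjusted p = 1.2e-06). Kif23, the kinesin of the centralspindlin complex, had 9.21, 9.05 and 9.08 against 9.87, 9.59 and 9.76. Replicate 2 was the lowest depleted array, as for many members, yet stood above all 3 controls, and the change was 0.63 ± 0.08 (adjusted p = 6.23e-05). Kif2c had 8.93, 8.86 and 8.84 against 9.60, 9.30 and 9.53, a change of 0.60 (adjusted p = 0.000182). Kif11, the motor that pushes spindle poles apart, rose by 0.54. Of 11 kinesins 5 rose. Kif18a, which aligns chromosomes, had the smallest change among them (0.16), and its groups overlapped.

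Among 6 mitotic kinases 3 rose. Plk1, which drives entry into mitosis, centrosome maturation and cytokinesis, had 10.38, 10.50 and 10.22 on the control arrays and 11.14, 11.02 and 10.98 on the depleted arrays. All depleted arrays stood above all controls, and the change was 0.67 ± 0.09 (adjusted p = 0.000113). Aurka, the spindle pole kinase, had 9.13, 9.20 and 9.22 against 9.82, 9.67 and 9.90. The control arrays lay close together, and the change was 0.61 ± 0.07 (adjusted p = 5.23e-05). Aurkb, the kinase of the chromosomal passenger complex, had 10.53, 10.60 and 10.61 against 11.18, 10.97 and 11.21, a change of 0.54 (adjusted p = 8.67e-05). Plk4, which copies centrioles, changed by 0.08, the smallest change of the 53, with overlapping groups.

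Of the cyclins and phosphatases, Ccna2 had 11.53, 11.40 and 11.33 against 12.04, 11.92 and 12.07. The groups did not overlap, and the change was 0.59 ± 0.07 (adjusted p = 2.67e-05). Ccnb2, a B-type cyclin, had 10.66, 10.82 and 10.96 against 11.28, 11.30 and 11.45 and rose by 0.53 (adjusted p = 0.000584). The control arrays of Ccnb2 were spread, replicate 1 being lowest. Cdc25b had 10.47, 10.56 and 10.52 against 10.63, 10.69 and 10.63, a difference of 0.14 that was not called, although all depleted arrays were above the controls.

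In the checkpoint and kinetochore groups, 1 member of each was called. Bub1b, which holds back anaphase until chromosomes attach, had 8.98, 8.98 and 8.76 against 9.62, 9.29 and 9.47, a change of 0.56 (adjusted p = 0.00107). Cenpf, a large kinetochore protein, had 7.93, 7.61 and 7.20 against 8.33, 8.12 and 7.98. Its 3 controls spanned a wide range, the top one just below the lowest depleted array, and the change was 0.56 ± 0.15 (adjusted p = 0.0387). In both groups replicate 1 of Cenpf was highest and replicate 3 lowest. Bub3, another checkpoint protein, had 11.20, 11.21 and 11.40 against 11.37, 11.22 and 11.51, a change of 0.09 with overlapping groups.

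Cytokinesis and anaphase genes were called in part. Cdc20, the activator of the anaphase-promoting complex and the target of the checkpoint, had 9.72, 9.64 and 9.75 against 10.37, 10.15 and 10.34. All depleted arrays stood above the controls by a margin wider than either group's range, with a change of 0.58 (adjusted p = 0.000155). Ube2c, the ubiquitin-conjugating enzyme of that complex, had 10.78, 10.68 and 10.69 against 11.03, 11.37 and 11.21, a change of 0.49 (adjusted p = 0.000584). Espl1, the protease separase that opens cohesin, rose by 0.51 (adjusted p = 0.0198), and Ect2, which activates RhoA at the division plane, by 0.52 (adjusted p = 0.00139). Gas2l3, a protein that binds actin and microtubules at the constriction site, had 8.78, 8.66 and 8.56 against 9.44, 8.96 and 9.16 and rose by 0.52 (adjusted p = 0.00364). Its depleted array 1 stood well above the other two.

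Hmmr, a spindle assembly factor, had 8.38, 8.20 and 8.20 against 9.05, 8.68 and 8.81 and rose by 0.59 (adjusted p = 0.00339). Foxm1, the transcription factor of the program, had 9.22, 9.20 and 8.97 against 9.76, 9.66 and 9.52 and rose by 0.52 (adjusted p = 0.00261). Both separated the groups fully. Mki67, the proliferation antigen, had 10.19, 9.71 and 9.25 against 10.69, 10.17 and 10.00, a difference of 0.57 with overlapping groups and an adjusted p of 0.111. In both groups replicate 1 of Mki67 was highest and replicate 3 lowest, and the main fit did not pair arrays by number. The 3 other members of the passenger complex, Birc5, Cdca8 and Incenp, had changes of 0.41 to 0.47, under the fold limit. All 15 called members that had a promoter window held TTTGAA or TTCGAA, as did 19 of the 29 others with a window.

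Aurka, Aurkb, Ccna2, Cdc20, Hmmr, Kif18b, Kif20a, Kif23, Kif2c and Plk1 kept the call in all 16 alternatives run for this comparison. With each array centred on its median 12 members were called: Ccnb2, Cenpf, Ect2, Espl1, Foxm1, Gas2l3 and Ube2c were not, with changes of 0.44 to 0.52. When 1 array was left out, the count was lowest at 13, without depleted array 1, and highest at 28, without depleted array 2, the depleted arrays with the highest and the lowest member mean. Each of the other 9 members fell out of the calls in at least 1 alternative. Without depleted array 1 the changes were 0.48 for Bub1b and Kif11, 0.47 for Cenpf, 0.42 for Espl1, 0.46 for Foxm1 and 0.39 for Gas2l3. Without depleted array 2 that of Ube2c was 0.41, and without depleted array 3 Ccnb2 and Ect2 stood at 0.475 and 0.445. Without control array 1 Ccnb2 had 0.46, without control array 2 Ect2 had 0.46 and Ube2c 0.47, and without control array 3 Cenpf had 0.37, Espl1 0.41, Foxm1 0.44, Gas2l3 0.47, Bub1b 0.48 and Ube2c 0.47.

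**Figure D2:**
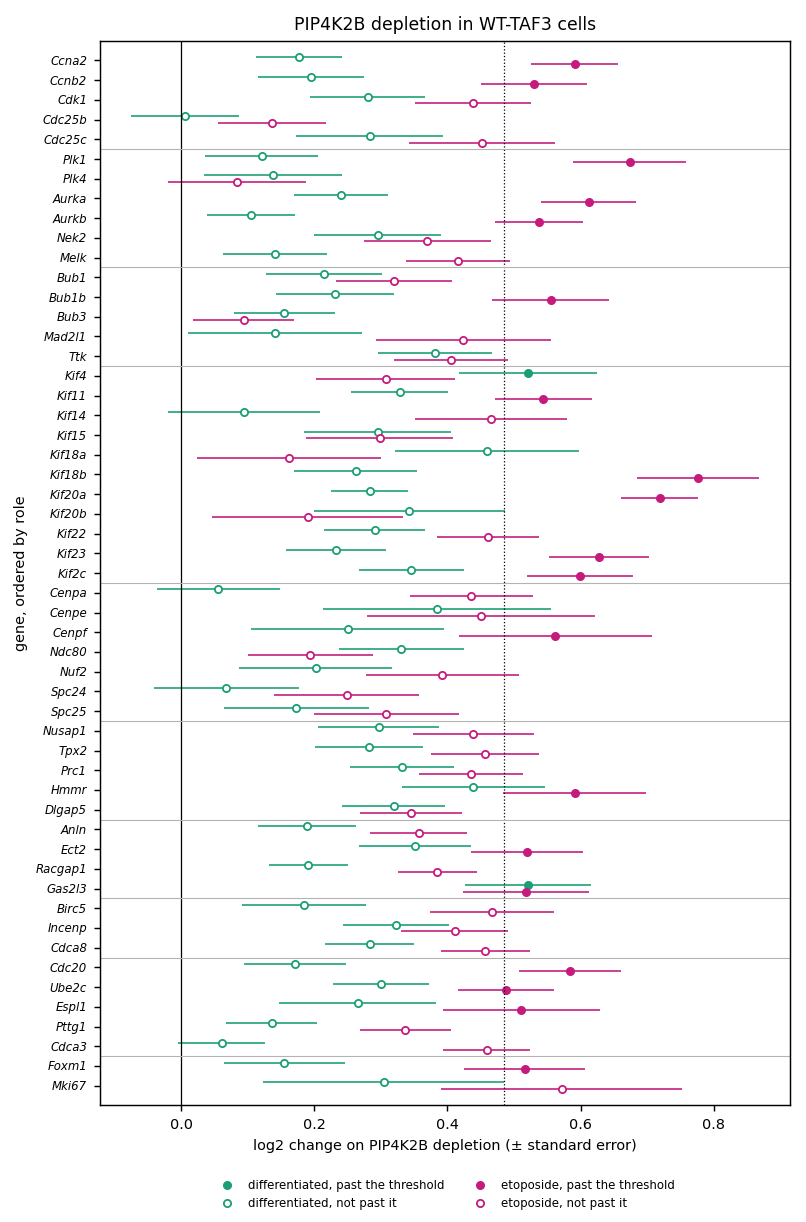
Log2 change on PIP4K2B depletion in WT-TAF3 cells for each of the 53 members (vertical axis, ordered by role), after differentiation and after etoposide, with standard errors from the limma fit (3 arrays per group). All points lie above 0. After etoposide they reach 0.78 (Kif18b) and after differentiation 0.52 (Kif4 and Gas2l3).

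The 3 KK-TAF3 sh-PIP4K2B arrays after etoposide stood above the same controls by as much or more. Of 53 members 37 rose and 0 fell, against 0.792% of all genes called higher, with a median change of 0.59 over the members and 0.02 over all genes. In 49 members every KK-TAF3 array lay above every control array, against 8.22% of all genes. This comparison shares its control arrays with the previous one, so the 2 sets of values are given side by side and their likeness was not tested. It changes TAF3 and PIP4K2B together, and the 2 cannot be told apart in it.

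Of the 11 kinesins 10 were called. Kif20a reached 10.60, 10.55 and 10.55 on the KK-TAF3 arrays, a change of 0.79 ± 0.06 (adjusted p = 1.18e-06). Kif2c reached 9.64, 9.71 and 9.58, a change of 0.77 (adjusted p = 1.46e-05), and Kif23 reached 9.89, 9.90 and 9.82, a change of 0.76 (adjusted p = 1.12e-05). On these arrays the 3 genes lay in narrow bands, all above the controls. Kif11 (0.74), Kif18b (0.73), Kif14 (0.67) and the chromokinesin Kif22 (0.67) followed, then Kif18a (0.55), Kif15 (0.52) and the chromokinesin Kif4 (0.50). Only Kif20b, at 0.45, was not called.

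Of 6 mitotic kinases 5 rose. Aurka, with 9.86, 9.95 and 10.02, had a change of 0.76 (adjusted p = 1.12e-05). Aurkb reached 11.24, 11.26 and 11.34, a change of 0.70. For both, every KK-TAF3 array was above every control. Plk1, with 11.14, 11.16 and 10.83, rose by 0.67, Melk by 0.64 and the centrosomal kinase Nek2 by 0.53, whereas Plk4 had 0.37 (adjusted p = 0.0642). Of the cyclin group Ccnb2 (0.64), Ccna2 (0.59), Cdc25c (0.59) and Cdk1 (0.52) rose, and Cdc25b had -0.08 with overlapping groups. Cdc25b was the 1 member of 53 below 0.

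Checkpoint genes rose in 4 of 5 cases: Bub1b (0.76), the kinases Bub1 (0.68) and Ttk (0.67), and Mad2l1 (0.60). Mad2l1 had 10.82, 10.93 and 11.49 on the KK-TAF3 arrays and 10.33, 10.41 and 10.68 on the controls, so that replicate 3 was high in both groups. Of 7 centromere and kinetochore genes Spc25 (0.68), the centromeric histone Cenpa (0.67) and Nuf2 (0.64) rose. Spc25, a subunit of the NDC80 complex, had 9.25, 9.47 and 9.81 against 8.90, 8.72 and 8.89, again with replicate 3 highest among the KK-TAF3 arrays. Ndc80 itself changed by 0.36 and Cenpf by 0.41.

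All 5 spindle proteins rose, from Nusap1 (0.54) and Dlgap5 (0.56) through Tpx2 (0.56), the activator of Aurka, and Hmmr (0.60) to Prc1 (0.63), which bundles antiparallel microtubules. Of the cytokinesis genes Ect2 (0.64), Anln (0.60), a scaffold of the contractile ring, and Gas2l3 (0.50) rose, and Racgap1, the partner of Kif23, had 0.43 (adjusted p = 0.000168), under the fold limit. Birc5 (0.59) and Cdca8 (0.62) of the passenger complex rose, and Incenp had 0.47. Of the anaphase group only Cdc20 (0.60) was called. Foxm1 had 0.39 and Mki67 0.60, the latter with overlapping groups. Of the 37 calls, 24 held in all 16 alternatives, and 33 to 38 members were called when 1 array was left out.

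**Figure D3:**
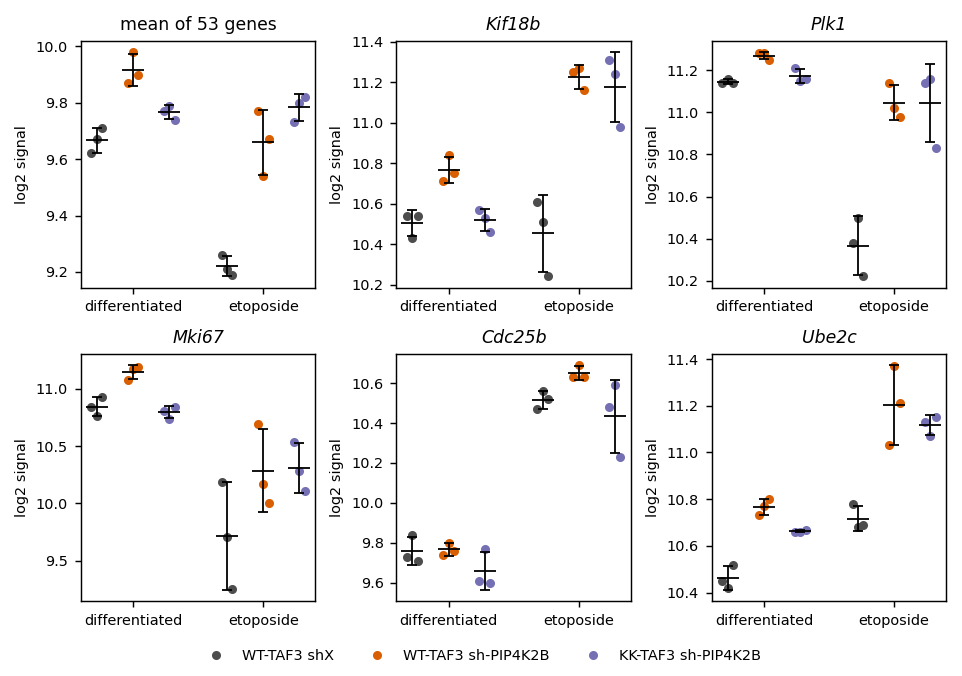
Log2 signal on every array for the mean of the 53 members and for selected members, by treatment, with 1 color per line, 3 points per group, and bars for the mean and SD. In the member mean the control arrays after etoposide lie between 9.19 and 9.26, below all other arrays.

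When the KK-TAF3 and the WT-TAF3 cells were compared, both with sh-PIP4K2B, 0 members passed in either treatment in limma's fit, by adjusted or unadjusted p with the fold limit. Pip4k2b itself was higher in the KK-TAF3 cells by 0.31 after differentiation and by 0.17 after etoposide, neither called. The part of this difference in depletion was not tested. After etoposide the members' median was 0.14 against -0.01 over all genes, with 44 of 53 above 0 and a range of -0.22 to 0.39. Called higher were 0.341% of all genes. In 11 members every KK-TAF3 array was above every WT-TAF3 array, against 6.89% of all genes. The largest differences were those of Kif18a (0.39, adjusted p = 0.22), Spc25 (0.37, adjusted p = 0.139) and Bub1 (0.36, adjusted p = 0.061). Bub1, with 10.61, 10.30 and 10.48 in WT-TAF3 and 10.67, 10.78 and 11.01 in KK-TAF3 cells, separated the groups, whereas Kif18a overlapped. At the other end stood Cdc25b (-0.22), Cenpf (-0.15) and Foxm1 (-0.13). The count was 0 in all alternatives but those that left out 1 array, which gave 0 to 1.

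After differentiation the order of the KK-TAF3 and the WT-TAF3 cells was the other way round. The members' median was -0.15 against 0.02 over all genes, and 51 of 53 were below 0, with a range of -0.35 to 0.06. Again 0 members were called, against 0.216% of all genes called lower. In 34 members every KK-TAF3 array was below every WT-TAF3 array, against 8.07% of all genes. Gas2l3, with 10.09, 10.16 and 10.18 in WT-TAF3 and 9.77, 9.88 and 9.74 in KK-TAF3 cells, had -0.35 (adjusted p = 0.128). Mki67, with 11.08, 11.17 and 11.19 against 10.81, 10.74 and 10.84, had -0.35 (adjusted p = 0.769), with a standard error of 0.18 that is estimated over all 18 arrays. Hmmr followed with -0.31 (adjusted p = 0.32). These 3 genes had all KK-TAF3 arrays below all WT-TAF3 arrays. Bub3 (0.06) and Melk (0.03) were the 2 members above 0, and Cenpa was next at 0.00. The mean of the 10 myoblast and myotube markers lay between 9.02 and 9.08 on the KK-TAF3 arrays and between 9.70 and 9.73 on the WT-TAF3 arrays. Of the 10, 8 were below 0 and 6 were called lower, led by the fusion protein gene Mymk (-1.57), Acta1 (-1.18), Tnnc1 (-1.11) and Myog (-1.02). Myod1 (0.20) and Des (0.12) were above 0, neither called. The part of these 10 markers in the members' differences was not tested.

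In differentiated WT-TAF3 cells, depletion of PIP4K2B left all 53 members above 0, by 0.01 to 0.52, with a median of 0.26 against -0.02 over all genes, of which 44.7% were above 0. By the fold limit 2 members rose, against 0.682% of all genes, and by adjusted p alone 16 did, against 3.21%. Every depleted array stood above every control in 46 members, against 21.8% of all genes. Gas2l3 had 9.52, 9.61 and 9.73 on the control arrays and 10.09, 10.16 and 10.18 on the depleted arrays. The groups were well apart, and the change was 0.52 ± 0.10 (adjusted p = 0.00401). Kif4 was the other, and Kif18a, with 7.81, 8.01 and 8.09 against 8.39, 8.49 and 8.40, was next at 0.46 (adjusted p = 0.0554). The smallest changes were those of Cdc25b (0.01), Cenpa (0.06) and Cdca3 (0.06), whose groups overlapped. With control array 1 left out neither call held (Gas2l3 0.47, Kif4 0.45), and without depleted array 2 Kif4 stood at 0.485 and Gas2l3 alone was called. With the array median as a covariate 0 members were called (Gas2l3 0.31, adjusted p = 0.0656) and 7 of 53 turned below 0. The array medians averaged 7.39 in the control group and 7.29 in the depleted group. The mean of the 10 muscle markers lay between 9.38 and 9.41 on the controls and between 9.70 and 9.73 on the depleted arrays, with 2 of 10 called, Tnnt3 (0.83) and Tnnc1 (0.61), and their part in the members' changes was not tested.

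The KK-TAF3 sh-PIP4K2B cells stood closer to the control after differentiation. Of 53 members 44 were above 0, with a median of 0.10 against 0.00 over all genes, and 0 were called in limma's fit, by adjusted or unadjusted p with the fold limit, against 0.823% of all genes called higher. With the array median as a covariate only 27 were above 0. In 24 of the 53 members all KK-TAF3 arrays lay above all controls, against 26.1% of all genes, a larger share of all genes than in the comparisons above. The largest were Kif4 (0.31, adjusted p = 0.0688), Cdk1 (0.28, adjusted p = 0.0543) and Kif18a (0.27, adjusted p = 0.196). Cdk1, the kinase that drives mitosis, had 11.15, 11.26 and 11.27 on the control arrays and 11.52, 11.55 and 11.44 on the KK-TAF3 arrays, without overlap. Mad2l1 (-0.13), Cdca3 (-0.10) and Cdc25b (-0.10) stood at the other end.

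In WT-TAF3 shX cells 24 members were lower after etoposide than after differentiation, against 2.92% of all genes called lower, and 1 was higher, against 4.71% called higher. The median was -0.44 against -0.05 over all genes. The largest falls were those of Cenpf (-1.14 ± 0.15, adjusted p = 8.59e-06) and Mki67 (-1.13 ± 0.18, adjusted p = 0.000123). Cenpf had 8.64, 8.71 and 8.81 after differentiation and 7.93, 7.61 and 7.20 after etoposide, and Mki67 had 10.84, 10.76 and 10.93 against 10.19, 9.71 and 9.25. Both separated the treatments fully, and in both the etoposide arrays fell step by step from replicate 1 to replicate 3.

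By role, the 4 cytokinesis genes all fell, from Gas2l3 (-0.95, adjusted p = 5.26e-07) to Racgap1 (-0.54). Of the checkpoint group Bub1b fell most (-0.94, adjusted p = 2.17e-07), and of the 6 kinesins that fell Kif14, a motor of the midbody, moved most (-0.85), though the mean of all its probe sets gave -0.37. Kif18b was at the other end of the kinesins, at -0.05. Ccnb2 (-0.79, adjusted p = 5.21e-07) led the cyclin group, Plk1 (-0.78, adjusted p = 1.6e-06) was the 1 kinase called, and Plk4 had -0.17. Cdk1 itself changed by -0.06, with overlapping groups. Among spindle proteins Hmmr fell by 0.76 and Nusap1 had -0.28. In the passenger complex 0 of 3 were called, with -0.33 for Cdca8 and -0.25 for Birc5, and in the anaphase group Cdc20 fell by 0.50. Foxm1 fell by 0.66 with Mki67.

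A few members moved against the rest. Cdc25b had 9.73, 9.84 and 9.71 after differentiation and 10.47, 10.56 and 10.52 after etoposide, 2 tight sets apart by 0.76 ± 0.08 (adjusted p = 1.25e-06). It was the 1 member that rose. Ube2c, with 10.45, 10.42 and 10.52 against 10.78, 10.68 and 10.69, had 0.25 (adjusted p = 0.0164, under the fold limit). Bub3 had 0.20 (adjusted p = 0.0613), and Spc25 0.01 with overlapping groups. Of the 10 muscle markers 6 fell and 2 rose in the same arrays, and their mean went from between 9.38 and 9.41 to between 8.96 and 9.01. In this contrast treatment, medium and state of differentiation cannot be told apart.

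In WT-TAF3 sh-PIP4K2B cells 12 members were lower after etoposide, against 6.30% of all genes, and 1 was higher, against 3.64%, with a median of -0.29 against 0.07 over all genes. Gas2l3 (-0.96), Mki67 (-0.86) and Cenpf (-0.83) led, and Cdc25b rose by 0.89 (adjusted p = 1.45e-07). Kif18b had 0.46 (adjusted p = 0.000772) and Ube2c 0.44 (adjusted p = 0.000135), both under the fold limit. The count called in either direction was 20 without etoposide array 1 and 9 without etoposide array 2, against 13 with all arrays. With each array centred on its median it was 21, and the median, -0.404, was level with the -0.405 of the control line on that scale. In KK-TAF3 sh-PIP4K2B cells the median was 0.00 against 0.03 over all genes. There 2 members fell, Cenpf (-0.77) and Gas2l3 (-0.63), against 4.81% of all genes, and 3 rose, Cdc25b (0.77), Spc25 (0.66) and Kif18b (0.66), against 3.52%. Cdc25b was thus higher after etoposide in all 3 lines, with 9.60 to 9.84 on the 9 differentiated arrays and 10.23 to 10.69 on the 9 etoposide arrays.

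**Figure D4:**
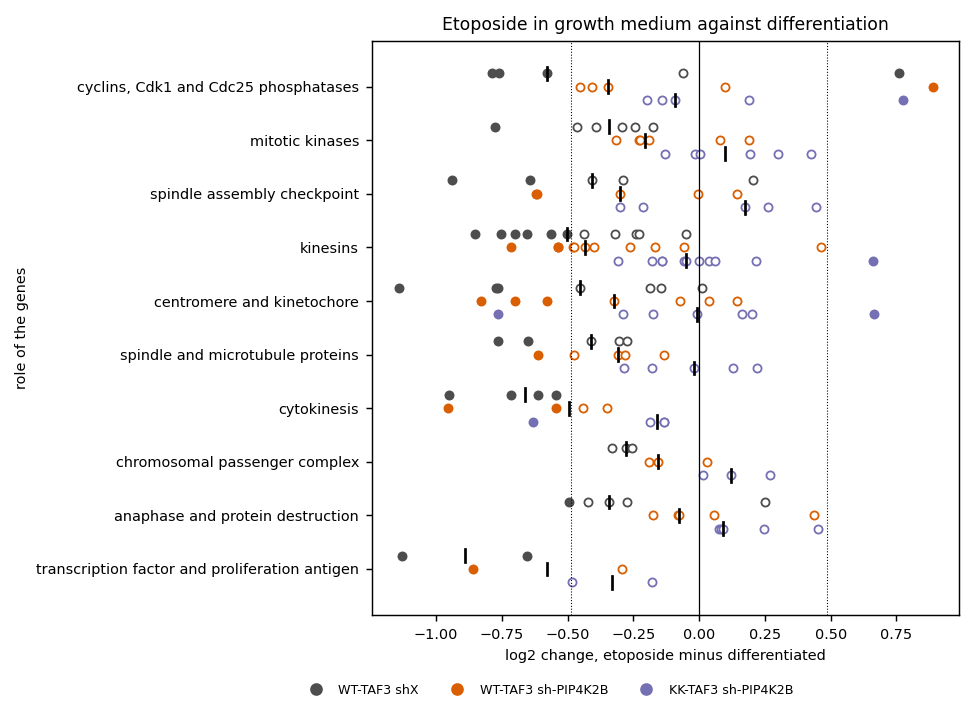
Log2 change from differentiation to etoposide for the 53 members, grouped by role, with 1 color for each of the 3 lines, each point 1 gene (filled where called), a black bar at each median and dotted lines at 1.4-fold. The medians are -0.44 in the control line, -0.29 in depleted WT-TAF3 and 0.00 in depleted KK-TAF3 cells (-0.405, -0.404 and -0.067 with each array centred on its median), and Cdc25b lies to the right in all 3.

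Whether depletion acted differently in the 2 treatments was tested as the difference of the 2 changes in WT-TAF3 cells. The change was larger after etoposide in 46 of 53 members, with a median difference of 0.18 against 0.04 over all genes. Of 47 further mitotic genes outside the list 18 were above 0 and 29 below, with a median of -0.10. Of 20 condensin and cohesin genes 8 were above 0 and 12 below, with a median of -0.06. Of 28 DNA replication genes 21 were above 0 and 7 below, with a median of 0.09. By the fold limit 2 members passed, against 1.95% of all genes in that direction, and by adjusted p alone 9 did, against 3.28%. Plk1 changed by 0.12 after differentiation, from 11.14, 11.16 and 11.14 to 11.28, 11.28 and 11.25 (limma's adjusted p = 0.36, not called). After etoposide Plk1 rose by 0.67, a difference of 0.55 ± 0.12 (adjusted p = 0.0195). Kif18b went from 10.54, 10.43 and 10.54 to 10.71, 10.84 and 10.75 after differentiation (0.26, limma's adjusted p = 0.0863, not called). Its difference between the treatments was 0.52 ± 0.13 (adjusted p = 0.033). Next was Kif20a with 0.44 ± 0.08 (adjusted p = 0.00838), under the fold limit. The opposite end held Kif18a (-0.30), Kif4 (-0.22) and Kif20b (-0.15), with adjusted p between 0.292 and 0.614. With each array centred on its median, 0 members passed (Plk1 0.41, adjusted p = 0.0691, and Kif18b 0.37, adjusted p = 0.109) and 11 members turned direction, so that 35 stayed above 0. That centring moved the median of all genes by -0.14, and the members' median less that of all genes stayed at 0.14. Leaving out 1 array ended the call of Plk1 in 3 of 12 cases and that of Kif18b in 7. Without control differentiated array 1 the values were 0.56 (adjusted p = 0.052) for Plk1 and 0.50 (adjusted p = 0.0869) for Kif18b, and without control differentiated array 2 they were 0.55 (adjusted p = 0.0512) and 0.55 (adjusted p = 0.0608). Without control etoposide array 3 they were 0.48 and 0.41. Kif18b also lost its call without depleted differentiated array 2 (0.55, adjusted p = 0.0654) or 3 (0.51, adjusted p = 0.0613) and without depleted etoposide array 2 (0.49) or 3 (0.55, adjusted p = 0.0503).

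The same difference for KK-TAF3 against WT-TAF3 was above 0 in 52 of 53 members, with a median of 0.28 against -0.02 over all genes. In limma's fit 0 members were called, against 0.135% of all genes in that direction, and 2 passed the fold limit by unadjusted p. Kif18a (0.58, adjusted p = 0.599), Spc25 (0.52, adjusted p = 0.445) and Bub1 (0.47, adjusted p = 0.273) had the largest values, and Cdc25b (-0.11) was the 1 member below 0.

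Other lists of cell cycle genes were read beside the members. Of all genes, 0.321% were called higher on depletion after etoposide and 0.682% on depletion after differentiation. In KK-TAF3 cells against the control after etoposide, 0.792% were called higher. Of 47 further mitotic genes, 4 rose on depletion after etoposide (Gtse1 by 0.58, Spag5 by 0.54, Troap by 0.53 and Cenpn by 0.49) with a median of 0.24. On depletion after differentiation 6 rose, led by Stil (0.58), Oip5 (0.54), Kntc1 (0.54) and Shcbp1 (0.53), with a median of 0.28 over the 47. Against the control after etoposide, 17 of 47 rose in KK-TAF3 cells, led by Cep55 (0.80), Spag5 (0.71), Oip5 (0.68) and Pimreg (0.68). Of 20 condensin and cohesin genes 1 rose on depletion after etoposide (Cdca5, by 0.50) and 7 in the KK-TAF3 comparison, led by Esco2 (0.87) and Ncapg (0.78). In 28 DNA replication genes the medians were 0.28 and 0.39 in these comparisons, with 3 called (Ccne2 0.68, Cdt1 0.55 and Mcm5 0.51) and 6 called (led by Ccne2 at 0.77 and Rrm2 at 0.58).

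In these 2 etoposide comparisons the regulators of the program had medians nearer 0. On depletion after differentiation the members' median was 0.26. There the median was 0.25 for genes of the G2 checkpoint and p53 arrest and 0.15 for those of DREAM, MuvB, E2F and NF-Y. It was 0.09 for genes of Cdk1 control and the anaphase-promoting complex. The shares of all genes called higher were again 0.321% on depletion after etoposide and 0.792% in the KK-TAF3 comparison. Of 22 genes of DREAM, MuvB, E2F and NF-Y, 2 rose on depletion after etoposide, E2f7 by 0.54 and Mybl2, which encodes B-Myb, by 0.51, with a list median of 0.07. In the KK-TAF3 comparison 0 of the 22 were called by limma's adjusted p with the fold limit, and the largest change, 0.484, lay just under that limit. Of 25 genes of Cdk1 control and the anaphase-promoting complex 1 rose on depletion after etoposide (Ccnf, by 0.57) with a median of -0.06, and 3 rose in the KK-TAF3 comparison, Mastl by 0.77, Ccnf by 0.65 and Fbxo5 by 0.58. Of 19 genes of the G2 checkpoint and p53 arrest 0 were called on depletion after etoposide by limma's adjusted p with the fold limit. In the KK-TAF3 comparison 1 of them was called, Chek1 by 0.66. Between treatments in control cells 4.71% of all genes were called higher and 2.92% lower. Of these 19 genes 5 rose there, among them Btg2 (1.21), Trp53inp1 (1.21) and Mdm2 (0.97), and Gadd45a fell by 0.80. Of the 47 further mitotic genes 10 fell there, led by Aspm (-1.07) and Iqgap3 (-0.87), and 4 rose, led by Psrc1 (0.89) and Gtse1 (0.66).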

How the data were processed

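Total RNA of C2C12 lines was measured on 18 Affymetrix mouse gene arrays. The authors processed the scans in Expression Console with RMA and deposited log2 values, and no raw scans were used here, so that the background correction could not be varied. The chip generation that the study names is later than that of the annotation used. Of 35556 probe sets, 21789 had 1 gene symbol, 1621 several and 12146 none, and only those with 1 were used, by the brightest for each of 19938 genes. Groups came from the labels. One limma fit (3.58.1, R 4.3.3) of 6 group means gave 11 contrasts with 12 residual and 6.05 prior degrees of freedom, Benjamini-Hochberg adjustment over all genes, and calls at an adjusted p below 0.05 and above 1.4-fold, a fold taken from the study's methods. The fit was run on simulated data with independent noise and planted changes well above the fold limit. That run does not bear on changes near the limit or on arrays and genes that deviate together. The 3 arrays per group limit the precision: the median standard error of a change was 0.087. Alternatives covered the threshold, the prior, centring, a filter on dim genes, the mean of all probe sets of a gene, the replicate block, an array median covariate, fits of fewer arrays and leaving out each array. Same-numbered arrays deviated together, with every correlation above 0.1, in 2 of 15 pairs of groups: WT-TAF3 shX after etoposide with WT-TAF3 sh-PIP4K2B after etoposide (0.33 to 0.56) and with KK-TAF3 sh-PIP4K2B after etoposide (0.10 to 0.59). For these, a replicate block within the 6 arrays compared was added after seeing the data. The labels name nothing that the numbers share, and over all pairs the correlations ran from -0.42 to 0.59. Promoter windows were searched, and plots drawn, in Python 3.11.15 (pandas 2.3.3, numpy 2.4.6, matplotlib 3.10.9). Genes named are all members called within a treatment or in a treatment difference, the 3 largest changes each way, the extremes of each role in control cells between treatments, members that moved against the rest, and up to 4 called genes of each further list. The members and lists were chosen with earlier results of these data known.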

Additional observations from a re-analysis of the deposited data

Results flagged for a closer look

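Plk1 and Kif18b drew attention because the effect of PIP4K2B depletion in WT-TAF3 cells differed between the treatments by a test of the difference itself. For Plk1 the change was 0.55 larger on the log2 scale after etoposide than after differentiation (0.553, limma's adjusted p = 0.0195), with all 3 depleted arrays above all 3 control arrays in both treatments. For Kif18b the change was 0.52 larger (0.515, limma's adjusted p = 0.033), again with the groups apart in both treatments. Neither call held under all alternatives: with each array centred on its median the differences were 0.41 (limma's adjusted p = 0.0691) for Plk1 and 0.37 (limma's adjusted p = 0.109) for Kif18b. The 2 calls among 53 members stand beside 1.95% of all genes called in that direction. Etoposide and growth medium went together on these arrays and cannot be told apart. No group was large enough for a test of single outlying arrays, but leaving out single arrays in turn ended the calls of Plk1 and Kif18b in some cases.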

How the results depend on the processing

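Counts of members called depended most on the fold limit. With no fold limit 16 members passed on depletion after differentiation, 38 on depletion after etoposide, 42, 34 and 15 between treatments in the control, depleted WT-TAF3 and KK-TAF3 lines, and 9 for the treatment difference of depletion. With each array centred on its median these counts were 4 on depletion after differentiation, 12 on depletion after etoposide, 21 between treatments in depleted WT-TAF3 cells and 0 for the treatment difference of depletion. That centring moved the median of all genes by -0.11 between treatments in depleted WT-TAF3 cells and by -0.14 for the treatment difference. With the array median as a covariate 0 members passed on depletion after differentiation, and by unadjusted p 2 passed for the treatment difference of KK-TAF3. When 1 array was left out, the counts ranged from 0 to 2 on depletion after differentiation, 13 to 28 on depletion after etoposide, 0 to 1 for KK-TAF3 against WT-TAF3 after etoposide, 9 to 20 between treatments in depleted WT-TAF3 cells, 0 to 2 for the treatment difference of depletion and 0 to 1 for that of KK-TAF3. The causes were not tested. With the replicate block 2 members were called on depletion after differentiation, 19 on depletion after etoposide and 39 in KK-TAF3 against the control after etoposide, and no count moved by more than 1.5 times. The replicate block within the 6 arrays compared, added after seeing the data, gave 20 and 39 in these last comparisons and ended no call. The dim filter, the robust prior, the mean of all probe sets and fits of fewer arrays moved no count by more than 1.5 times. The 3 arrays per group and a median standard error of 0.087 limit what can be seen of small changes.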
